A study of Mus musculus with 20 samples.

Results

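Frontal cortex of mice carrying the Q331K change in both copies of Tardbp was compared with frontal cortex of mice carrying none. Tardbp codes for TDP-43, an RNA-binding protein, and Q331K is a change linked to amyotrophic lateral sclerosis, a disease of motor neurons that can also affect frontal cortex. Members were the 8 libraries labelled Q331K/Q331K and the 6 labelled +/+, 14 of the 20 libraries of the series, and libraries with a single changed copy were left out. All mice had a C57BL/6 background and were 5 months old, and no other allele or agent is named for either group. The change is a knock-in, placed in the gene itself, so the gene's own promoter drives it. The number of founders of the line is not given in the sources used here. The labels give separate samples and do not say that each came from a separate mouse, so the p-values cover only the spread from sample to sample, which may be technical.

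TDP-43 binds UG-rich stretches of RNA, acts in splicing and in transport and decay of mRNA, and lowers its own mRNA by binding near its end. Its loss or excess is therefore known to change the level of many mRNAs. Counts per gene show levels and not which exons were used, and a tissue library mixes neurons, glia, vessels and any neighbouring tissue. In such bulk samples fewer cells of a type and less RNA per cell cannot be told apart.

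Tardbp lay between 210.3 and 225.9 CPM in wild type, with a median of 218, and between 234.1 and 264 CPM in homozygotes, with a median of 243. CPM is a count scaled by the library's total. Every homozygous library was above every wild-type library. The log2 change was 0.17, standard error 0.030 (edgeR quasi-likelihood test, Benjamini-Hochberg adjusted p = 0.00914). The exact permutation test, two-sided over 3003 arrangements, reached its smallest possible p, 0.000333. The call was not kept with 3 surrogate variables (adjusted p = 0.101, edgeR) or with tissue marker sums as covariates (adjusted p = 0.154, edgeR), at log2 changes of 0.17 in both. The 3 tested genes nearest on each side, Exosc10, Srm and Masp2, and Casz1, Gm13205 and Pex14, had adjusted p of 0.512 or more (edgeR). Masp2 overlaps Tardbp on the opposite strand. Fbxo44, an F-box protein gene within 1 Mb and chosen after its value was seen, was lower at -0.12 (adjusted p = 0.0418, edgeR).

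Library totals ran from 69312426 to 105412832 counts. Neurons of cortex were well represented: Slc17a7, a vesicular glutamate transporter of excitatory neurons, was at 1295 to 1494 CPM in the 14 libraries, and Gad1, the enzyme of GABA synthesis, at 287 to 343 CPM. The cerebellar markers Pcp2 and Gabra6 were at most 0.326 CPM. Homozygous replicates 1, 2 and 4 stood apart in ependymal and motile cilia markers, whose 20 genes summed to 80.3, 64.0 and 65.3 CPM there, against 45.2 to 52.3 CPM in the other homozygotes and 43.1 to 48.4 CPM in wild type. Meningeal fibroblast markers summed to 774 and 800.2 CPM in homozygous replicates 1 and 2, against 381 to 691 CPM in wild type. Olfactory bulb markers summed to 756, 809 and 806 CPM in homozygous replicates 2, 5 and 8, against 643 to 718 CPM in wild type. That sum, also used as a tissue covariate, includes Ptn, which was itself called higher in homozygotes. Mitochondrial transcripts took 6.99% to 11.5% of counts in wild type and 6.26% to 9.31% in homozygotes. The part of these differences in the results was not tested beyond the alternatives given with them.

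**Figure D1:**
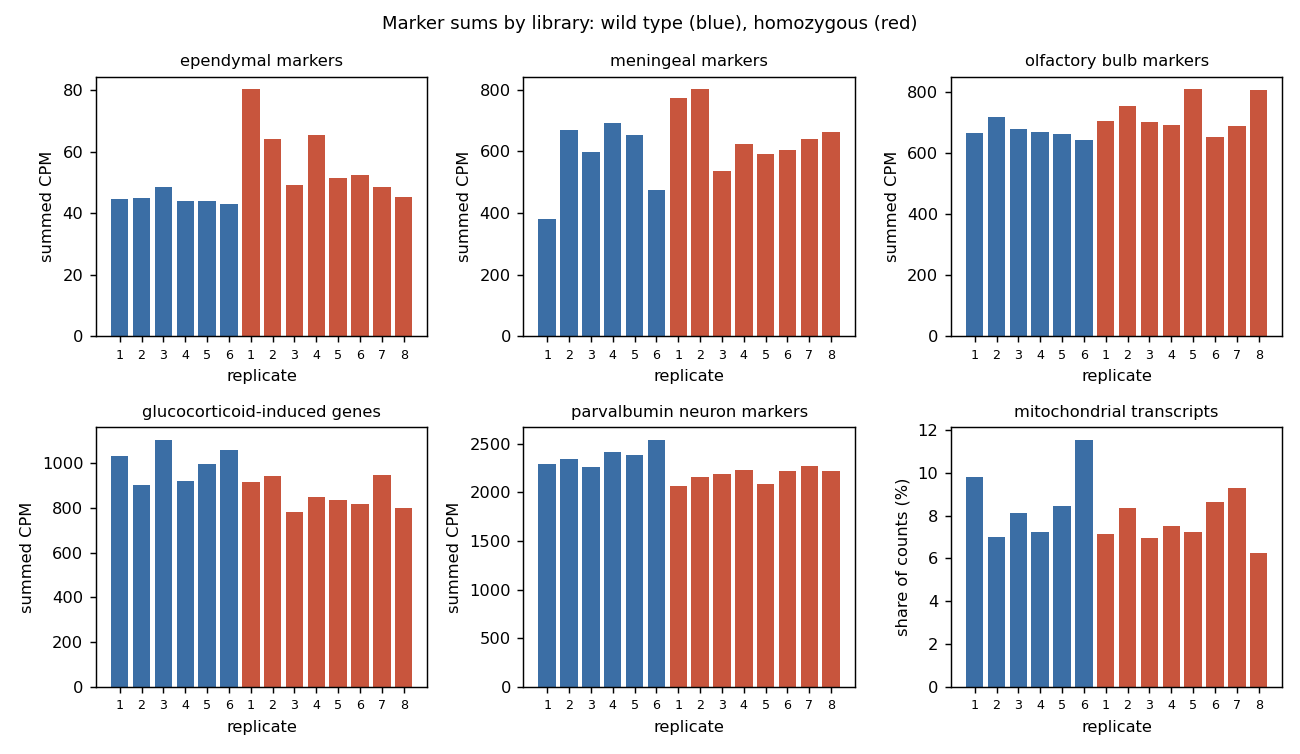
Summed CPM of 5 marker lists and the share of counts in mitochondrial transcripts (y axes) in each of the 14 libraries (x axes, replicate number), wild type in blue and homozygous in red. Homozygous replicates 1, 2 and 4 have the tallest ependymal bars, at 80.3, 64.0 and 65.3 CPM, and the parvalbumin sum is at most 2272 CPM in homozygotes where the wild-type libraries run from 2261 to 2542 CPM.

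Across all expressed genes the differences were few and small. Of 16512 genes tested, 194 were called at an adjusted p under 0.05 (1.17%), 83 higher in homozygotes (0.503%) and 111 lower (0.672%). The median absolute log2 change was 0.26 among called genes, a difference of about 19.4% in level, and 0.057 among all genes tested. Of the called genes 124 exceeded 0.2 on the log2 scale, 25 exceeded 0.5 and 9 exceeded 1. The groups did not overlap in CPM for 126 genes (0.763% of those tested), 46 with every homozygous library above (0.279%) and 80 with every one below (0.484%), and 89 of these 126 were called. Between replicates of a group the median coefficient of variation over genes was 6.54% in wild type and 7.15% in homozygotes.

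The number of calls rested on single libraries and on what else was fitted. Dropping wild-type replicate 1, 3, 5 or 6 left 97, 108, 58 or 103 calls, and dropping homozygous replicate 5 left 74. Fits with added terms called 10 genes with 3 surrogate variables, 13 with the ependymal, olfactory and meningeal sums as covariates and 45 with the mitochondrial share as a covariate. DESeq2, with the 2 groups alone, called 582. Without homozygous replicates 1, 2 and 4 the number was 214, of which 111 were among the 194. The 194 genes kept their sign in each of these fits, except 1 gene without those 3 libraries, which may have turned sign or not been tested there. Of the 194, 51 were called in each of the 14 fits that left out 1 library, 16 higher and 35 lower. Called under every alternative were 4933439F18Rik, named Gid4 in GENCODE M21, a subunit of the GID ubiquitin ligase that overlaps Atpaf2 on the opposite strand, Dus2l, a tRNA dihydrouridine synthase, and Ociad2.

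**Figure D2:**
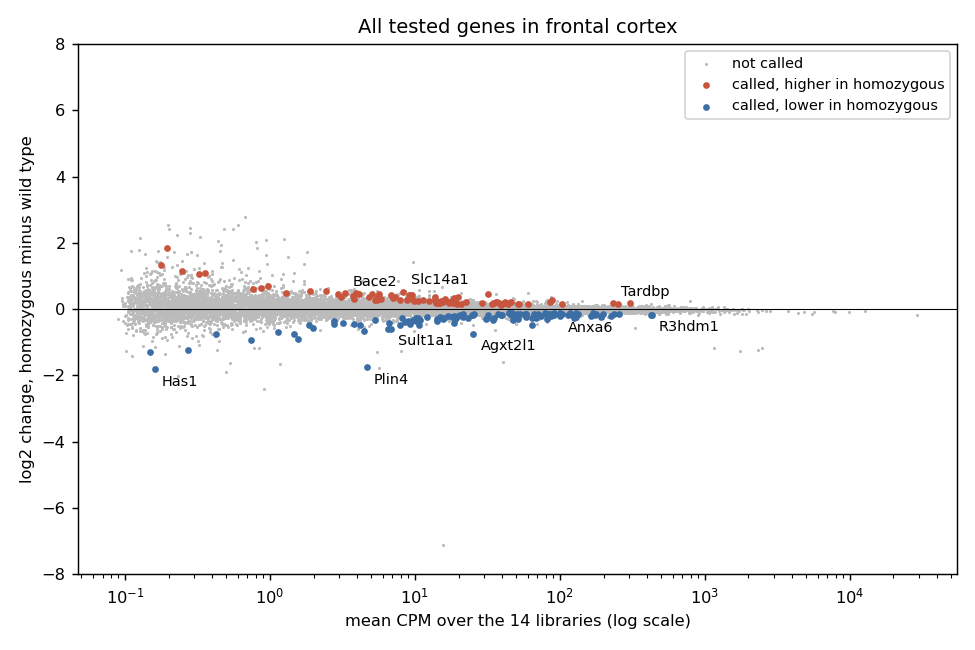
Log2 change of each of the 16512 tested genes (y axis, homozygous minus wild type) against its mean CPM over the 14 libraries (x axis, log scale). Called genes, 83 higher in red and 111 lower in blue, lie mostly within 0.5 of 0, and of those with a mean of at least 1 CPM Plin4 lies farthest out, at -1.76.

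Among lowered genes not named in earlier work on these data, Rmnd1 and Anxa6 had the smallest p-values. Rmnd1, needed for translation within mitochondria, lay between 31.7 and 38.4 CPM in wild type, with a median of 35.05, and between 26.4 and 30.7 CPM in homozygotes, with a median of 27.4. No homozygous library reached the lowest wild-type library. Its log2 change was -0.31 (standard error 0.047, edgeR adjusted p = 0.00231), and it overlaps Gm16153 on the opposite strand. Anxa6, a calcium-dependent phospholipid-binding protein, went from 102 to 113 CPM in wild type, median 109, to between 87.2 and 101 CPM in homozygotes, median 94.0. The groups again did not overlap, at a log2 change of -0.20 (standard error 0.034, edgeR adjusted p = 0.00914). Both were called in all 14 fits that left out a library and without homozygous replicates 1, 2 and 4. Neither was called with surrogate variables or tissue covariates (adjusted p = 0.101 or more, edgeR).

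Other lowered genes were of varied kinds, some of them coding for adhesion, transport and secretion proteins. Cdh19, a cadherin, lay between 9.61 and 10.4 CPM in wild type, median 10.2, and between 6.21 and 8.89 CPM in homozygotes, median 8.13, with no overlap (log2 change -0.35, edgeR adjusted p = 0.0149). Syt13, a synaptotagmin, fell by 0.21 on the log2 scale, from a wild-type mean of 244 ± 16.0 CPM (SD, n = 6), and Abcc5, an exporter of organic anions, fell by 0.15, from 269 ± 10.3 CPM to a homozygous mean of 242 ± 7.09 CPM (SD, n = 8). Dcbld2, a transmembrane receptor, and Dexi, first described as a dexamethasone-induced transcript, both fell by 0.18. For these 5 genes and Spag1 every homozygous library was below every wild-type library. R3hdm1, a predicted nucleic acid-binding protein, fell by 0.19, Klhdc7a by 0.30 and Spag1, which helps assemble dynein arms of motile cilia, by 0.24. Igsf5, an adhesion molecule of tight junctions, fell by 0.17 and overlaps Pcp4 on the same strand, which fell by 0.18, so reads could be shared between them, and Itgb2l on the opposite strand. Dcbld2 overlaps St3gal6 on the opposite strand. Of these 9 genes besides Pcp4, Dexi was the 1 not called in every fit without a library (adjusted p = 0.0521 without wild-type replicate 5, edgeR). None of the 9 was called with surrogate variables or tissue covariates.

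Among raised genes the membrane-bound protease Bace2, a relative of the enzyme that cuts the amyloid precursor protein, had the smallest p of those not named in earlier work on these data. It lay between 2.33 and 3.15 CPM in wild type, median 2.64, and between 3.31 and 4.39 CPM in homozygotes, median 3.83. Every homozygous library was above wild type, and the log2 change was 0.49 (standard error 0.086, edgeR adjusted p = 0.00914). Rlbp1, which binds retinaldehyde, lay between 15.5 and 17.9 CPM in wild type, median 16.5, and between 17.5 and 21.5 CPM in homozygotes, median 20.1. The groups overlapped at their edges and the log2 change was 0.28 (standard error 0.050, edgeR adjusted p = 0.0121). Apcdd1, a membrane-bound inhibitor of Wnt signalling, was at 12.9 to 15.2 CPM in wild type, median 14.5, and 15.6 to 19.5 CPM in homozygotes, median 17.6, without overlap (log2 change 0.29, edgeR adjusted p = 0.0178). These 3 genes were called in each fit without a library and without homozygous replicates 1, 2 and 4. None was called with surrogate variables, and only Apcdd1 with tissue covariates (adjusted p = 0.0325, edgeR). Apcdd1 was not called with the mitochondrial share (adjusted p = 0.0582, edgeR).

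Several raised genes coded for transporters, enzymes and surface proteins. Slc14a1, a urea transporter of astrocytes, rose by 0.53 on the log2 scale, with wild type at 6.64 ± 0.653 CPM (SD, n = 6) and homozygotes at 9.58 ± 1.604 CPM (SD, n = 8), and Slc30a10, a manganese exporter, rose by 0.23, from 15.7 ± 1.09 CPM to 18.4 ± 0.730 CPM. Cyp2j6, a cytochrome P450, rose by 0.22, Pyroxd2, an oxidoreductase, by 0.55 and Lsp1, an actin-binding protein of leukocytes that overlaps Gm14492 on the opposite strand, by 0.38. Pdpn, or podoplanin, a surface glycoprotein, rose by 0.27 with no overlap of the groups. Shisa6, a partner of AMPA receptors that overlaps Gm12296 on the opposite strand, rose by 0.22, Fam184b by 0.32, Mtss1, which binds actin and membranes, by 0.17 and the tetraspanin Tspan18 by 0.53. Without homozygous replicates 1, 2 and 4 the calls of Cyp2j6, Slc30a10, Pyroxd2, Pdpn and Tspan18 were not kept (adjusted p = 0.0626, 0.0617, 0.0710, 0.0830 and 0.164, edgeR), at log2 changes of 0.18, 0.20, 0.43, 0.22 and 0.38 with 3 fewer libraries. Tspan18 was called in 5 of the 14 fits that left out 1 library, Shisa6 and Mtss1 in 11, Fam184b in 12 and Cyp2j6, Slc30a10 and Pdpn in 13. No raised gene of this paragraph was called with surrogate variables or tissue covariates.

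**Figure D3:**
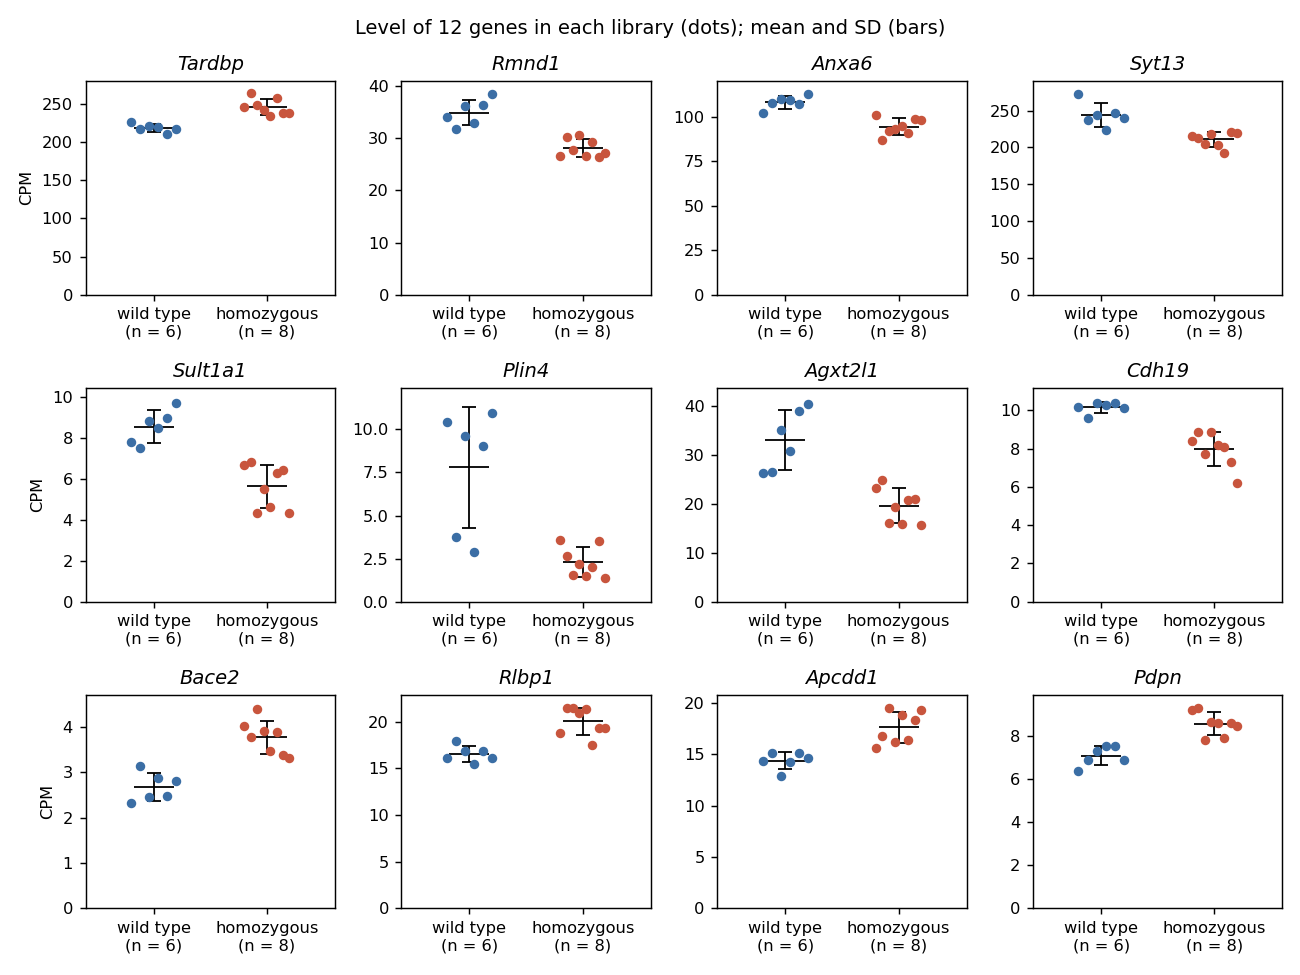
CPM (y axes, from 0) of 12 genes in the 6 wild-type (blue) and 8 homozygous libraries (red), 1 dot a library, with the mean and SD as bars. Tardbp, Bace2, Apcdd1 and Pdpn have every homozygous dot above the wild-type dots, Rmnd1, Anxa6, Syt13, Sult1a1, Agxt2l1 and Cdh19 every one below, and Plin4 varies from 2.90 to 10.96 CPM within wild type.

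The genes with the largest decreases included targets of glucocorticoids, the stress hormones that act through a nuclear receptor and are known to induce Fkbp5, Tsc22d3, Sgk1 and Plin4 in brain. Plin4, a coat protein of lipid droplets, lay between 2.90 and 10.96 CPM in wild type, median 9.35, and between 1.39 and 3.55 CPM in homozygotes, median 2.09. Wild-type replicates 2 and 4, at 3.77 and 2.90 CPM, lay within or near the homozygous range, while the other 4 were at 9.07 CPM or more. Its log2 change was -1.76 (standard error 0.344, edgeR adjusted p = 0.0319), it overlaps Hdgfrp2 on the opposite strand, and it was called in 5 of the 14 fits that left out 1 library. Without homozygous replicates 1, 2 and 4 its log2 change was -1.96 and the call was not kept (adjusted p = 0.0723, edgeR). Sult1a1, a sulfotransferase of phenols, was steadier: 7.51 to 9.67 CPM in wild type, median 8.64, and 4.33 to 6.81 CPM in homozygotes, median 5.89, with no overlap. Its log2 change was -0.60 (standard error 0.107, edgeR adjusted p = 0.0143), called in all 14 fits, and it overlaps Ccdc101 on the opposite strand.

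Of the 17 glucocorticoid-induced genes listed, these 2 were called, both lower (background 0.672% of genes tested), and 16 had negative estimates. The median log2 change was -0.20, where that of all genes tested was 0.0024, and it lay between -0.31 and -0.15 over the alternatives. Tsc22d3, a leucine zipper protein, was at -0.46 (edgeR adjusted p = 0.0664), Fkbp5, a co-chaperone of the receptor, at -0.48 (adjusted p = 0.118) and Sgk1, a kinase, at -0.38 (adjusted p = 0.364), none of them called. The 17 genes summed to 902 to 1104 CPM in wild type and 779.6 to 949 CPM in homozygotes, and the ranges overlapped. Without homozygous replicates 1, 2 and 4 all 17 estimates were negative, and Sult1a1 and Htra1 were called. With surrogate variables or tissue covariates none was called.

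The promoter of Sult1a1 is shown because it is the called gene of the list whose groups did not overlap. It is the 300 bases chr7:126676369-126676668 on the minus strand, from RefSeq for GRCm38.p6, 5′ to 3′. Capitals mark the half-site of the glucocorticoid receptor, AGAACA, searched on both strands.

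Sult1a1 promoter: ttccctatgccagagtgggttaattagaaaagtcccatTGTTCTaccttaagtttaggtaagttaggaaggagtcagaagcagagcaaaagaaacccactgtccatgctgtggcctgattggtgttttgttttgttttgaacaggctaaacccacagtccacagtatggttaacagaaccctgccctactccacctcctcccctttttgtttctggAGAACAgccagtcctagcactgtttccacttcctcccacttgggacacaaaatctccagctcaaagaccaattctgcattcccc

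The window held 2 half-sites. Of 15825 such windows of tested genes 12.96% held at least 1. Counted by gene, 15.3% of 12400 had a window with at least 1. Of 15 listed genes with a promoter 3 did, namely Sgk1, Tsc22d3 and Sult1a1. The full palindrome, AGAACA and then TGTTCT after 3 bases, was found in 1 window, that of Sgk1. A match is a description of the letters in a window and no evidence of binding.

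Agxt2l1, Rpe65 and Maff completed the large decreases at 1 CPM or more. Agxt2l1, or Etnppl, an astrocyte enzyme that breaks down phosphoethanolamine, lay between 26.3 and 40.3 CPM in wild type, median 32.9, and between 15.7 and 24.9 CPM in homozygotes, median 20.1. Its groups did not overlap and its log2 change was -0.75 (standard error 0.136, edgeR adjusted p = 0.0237), kept in 10 of the 14 fits without a library. Rpe65, the retinoid isomerase of the visual cycle, fell by 0.77, with wild type at 1.90 ± 0.296 CPM (SD, n = 6) and homozygotes at 1.12 ± 0.271 CPM (SD, n = 8), and was kept in all 14, though not without homozygous replicates 1, 2 and 4 (log2 change -0.67, adjusted p = 0.0533, edgeR). Maff, a small Maf transcription factor, fell by 0.71 and was kept in 3. It was the 1 called of 28 immediate early genes (background 0.672% of genes tested lowered), of which 22 had positive estimates and the median was 0.066. With tissue covariates 6 were positive and the median was -0.13, the 1 alternative of 26 that turned its sign. Maff was called in that fit (log2 change -1.21, adjusted p = 0.0378, edgeR). Agxt2l1 and Rpe65 were called neither with surrogate variables nor with tissue covariates.

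Parvalbumin interneurons are fast-spiking inhibitory cells that fire at high rates and use particular channels and release proteins. Of 16 markers, Pvalb, Syt2, Vamp1 and Cox6a2 were called, all lower (background 0.672% of genes tested), and 15 had negative estimates (median -0.11). On the opposite strand Cox6a2 is overlapped by Itgad, and Vamp1 by Cd27 and Tapbpl. The same 4 were called without homozygous replicates 1, 2 and 4, and none with surrogate variables or tissue covariates. These decreases are part of an earlier account of the data and their members were known when the list was written. Channel subunits outside that account, known from fast-spiking cells and large axons, are given next. They were picked because they were called in the channel lists, so they add no support to the parvalbumin list. None of them was called with surrogate variables, tissue covariates or the mitochondrial share. Kcng4, a modifier of the Kv2 potassium channels, fell by 0.34 on the log2 scale with wild type at 10.99 ± 1.07 CPM (SD, n = 6) and homozygotes at 8.66 ± 1.07 CPM (SD, n = 8) and was called in 5 of the 14 fits that left out 1 library. Kcnab2, the beta subunit of Kv1 channels, went from 431 to 489 CPM in wild type, median 443, to between 388 and 422 CPM in homozygotes, median 399.6, without overlap (log2 change -0.17, edgeR adjusted p = 0.0178). It overlaps Gm16334 on the same strand and Gm16333 and Nphp4 on the opposite strand. Scn4b, the sodium channel subunit that sustains rapid firing, was at 129.8 to 153 CPM in wild type and 109.7 to 131 CPM in homozygotes (log2 change -0.23, edgeR adjusted p = 0.0178), with a slight overlap.

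Channel and synaptic families held few calls, beside backgrounds of 0.503% raised and 0.672% lowered among all genes tested. Of 86 potassium channel subunits 3 were lowered, Kcnab2, Kcng4 and the leak channel Kcnk1 (-0.18), and 43 estimates were negative. Kcnk1 was called in 7 of the 14 fits that left out 1 library, and Kcnab2 was not called without homozygous replicates 1, 2 and 4 (log2 change -0.16, adjusted p = 0.0502, edgeR). Of 37 sodium and calcium channel subunits Scn4b was the 1 called. Among 50 synaptotagmins, complexins and SNARE proteins Vamp1, Syt2 and Syt13 were lower and Stxbp2, a Munc18 protein that acts in granule release, was higher at 0.18, and the median was -0.0016. Taken library by library, the median of these 50 genes against the wild-type mean lay below all wild type in 7 of 8 homozygous libraries. That mean is taken over the wild-type libraries themselves, which draws them together. Homozygous libraries outside the wild-type range are therefore partly built in. None of 25 glutamate receptor subunits was called, with 20 positive estimates and a median of 0.052, and 7 of 8 homozygous libraries lay above all wild type in the list's median. Homozygous replicate 2 was the exception, below all wild type. The potassium channel list had 5 homozygous libraries below and 3 above all wild type, so such counts were not particular to these 2 lists. None of 17 GABA receptor subunits was called, with a median of 0.039. Neurofilament, spectrin and axonal microtubule genes held 1 called gene of 28, Nefh, the heavy neurofilament, at -0.29. Of 61 adhesion genes Kirrel2 (-0.48) and Cdh19 were lowered, while 42 estimates were positive.

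In the extracellular matrix of neurons, Has1, a hyaluronan synthase, fell from between 0.221 and 0.348 CPM in wild type to between 0.0116 and 0.169 CPM in homozygotes, with no overlap (log2 change -1.82, edgeR adjusted p = 0.0117). At these levels a library held few counts. Tnc, or tenascin C, which overlaps 8030451A03Rik on the opposite strand, rose by 0.45 with wild type at 3.40 ± 0.480 CPM (SD, n = 6) and homozygotes at 4.63 ± 0.549 CPM (SD, n = 8), a call not kept without homozygous replicates 1, 2 and 4 (log2 change 0.43, adjusted p = 0.0715, edgeR). These were the 2 called of 16 perineuronal net genes, where 1.17% of all genes tested were called, and the list's median was -0.0027.

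Signalling lists held 1 or 2 called genes each, beside a background of 1.17% of genes tested. In the Wnt list of 49 genes Sfrp1, a secreted inhibitor, was higher (0.36) and the ligand Wnt10a lower (-0.35), with a median of 0.065. In the Hippo list of 26 the kinase Lats1 was higher (0.18) and its upstream regulator Wwc1, or KIBRA, lower (-0.13), with a median of 0.034. Of 14 genes of pleiotrophin and midkine signalling, the ligand Ptn was higher (0.16) and the receptor proteoglycan Sdc4 lower (-0.32), with a median of 0.054. The median of a list in single libraries lay above all wild type in 6 of 8 homozygous libraries for Wnt, 5 for Hippo and 7 for pleiotrophin and midkine, and below it in none. Such counts are partly built in, since the values are set against the mean of the wild-type libraries themselves. Ptn lay between 225 and 246 CPM in wild type, median 236, and between 255 and 278 CPM in homozygotes, median 263, with no overlap. Of 46 growth factors and receptors Igfbp4, which binds insulin-like growth factors, fell by 0.20, and of 29 JAK, STAT and cytokine receptor genes Stat6 fell by 0.37 and overlaps Nab2 on the opposite strand. The calls of Wnt10a and Wwc1 were not kept without homozygous replicates 1, 2 and 4 (log2 changes -0.33 and -0.13, adjusted p = 0.0950 and 0.0577, edgeR), and those of Wnt10a, Wwc1, Sdc4 and Igfbp4 were kept in 6, 5, 6 and 5 of the 14 fits without a library.

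Lists of genes that act on RNA, chromatin and traffic held few calls, beside backgrounds of 0.503% raised and 0.672% lowered among all genes tested. Tardbp was the 1 called of 14 RNA-binding proteins linked to amyotrophic lateral sclerosis, a list with 11 positive estimates and a median of 0.034. Of 43 mRNA decay factors Xrn2, the nuclear exonuclease that ends transcription, rose by 0.16 and was kept in 7 of the 14 fits. None of 33 hnRNP and SR proteins, 58 translation initiation factors or 20 cytosolic aminoacyl-tRNA synthetases was called, and Dus2l (-0.45), which overlaps Dpep2 and Ddx28 on the opposite strand, was the 1 called of 46 tRNA modification enzymes. Of 33 genes of MYST acetyltransferase complexes Meaf6 (0.15) and Ing5 (0.19) rose, and Ing5 was kept in 3 of the 14 fits. Of 101 traffic proteins the adaptor partner Synrg (0.20) and the sorting nexins Snx7 (0.28) and Snx18 (0.19) rose, beside a background of 0.503% raised. Of 375 Zfp genes Zfp28 (0.23) and Zfp266 (0.14) rose. Snx7, Snx18, Zfp28 and Zfp266 were kept in 5, 2, 6 and 5 of the 14 fits. Without homozygous replicates 1, 2 and 4 the calls of Snx18, Zfp28, Zfp266 and Ing5 were not kept (log2 changes 0.17, 0.24, 0.12 and 0.17, adjusted p = 0.108, 0.0600, 0.0989 and 0.101, edgeR).

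Several lists of energy and protein synthesis genes had mostly negative estimates, where 48.9% of all genes tested were negative. Calls were few, beside backgrounds of 0.503% raised and 0.672% lowered among all genes tested. Of 81 respiratory chain and ATP synthase genes 73 had negative estimates, with a median of -0.045, and of 81 cytosolic ribosomal proteins 75 did, with a median of -0.040. The called members of the first list were Cox6a2, the heart and muscle form of a cytochrome oxidase subunit that is also a parvalbumin marker, and Cox4nb, a neighbour of Cox4i1 named Emc8 in GENCODE M21, whose product sits in the endoplasmic reticulum and which the name pattern caught (-0.12) and which overlaps Gm20388 on the opposite strand. Cox4nb was called in 3 of the 14 fits that left out 1 library. Its call was not kept without homozygous replicates 1, 2 and 4 (log2 change -0.10, adjusted p = 0.113, edgeR). No ribosomal protein was called, nor any of 78 mitochondrial ribosomal proteins (59 negative, median -0.029), 21 glycolytic enzymes (18 negative, median -0.050), 22 heat shock proteins (20 negative, median -0.052) or 34 autophagy and lysosome genes (28 negative, median -0.037). The unfolded protein and stress response list had a median of -0.093 with 24 of 30 negative and none called. Herpud1, a gene of that response, was at -0.21 (edgeR adjusted p = 0.0645) and overlaps Gm15890 on the opposite strand. The sign of these 7 medians was negative in each alternative fit. Counts of signs are given with no test, since genes share libraries. Not every such list leaned this way. Of 58 translation initiation factors 27 were negative and 31 positive (median 0.0013), and of 43 proteasome subunits 24 were negative (median -0.0065). In single libraries the list median lay below all wild type in 8 of 8 homozygous libraries for glycolysis and 7 for autophagy. It did in 6 for mitochondrial and 4 for cytosolic ribosomal proteins, 5 for the respiratory chain and 3 each for heat shock and stress response. Above all wild type lay 2 for cytosolic ribosomal proteins and 1 each for autophagy, heat shock and the respiratory chain. These counts too are partly built in, as the values are set against the mean of the wild-type libraries themselves. Among the 2483 tested genes under 5 kb 56.99% were negative, and of the 164 with a mean of at least 100 CPM 80.5% were, with a median of -0.045. Mitochondrial enzymes changed singly: Afg3l1, a protease that overlaps Gm20388 on the same strand, was at -0.27, Acad8, of valine breakdown, at -0.28 and D2hgdh, which oxidises D-2-hydroxyglutarate, at 0.43.

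**Figure D4:**
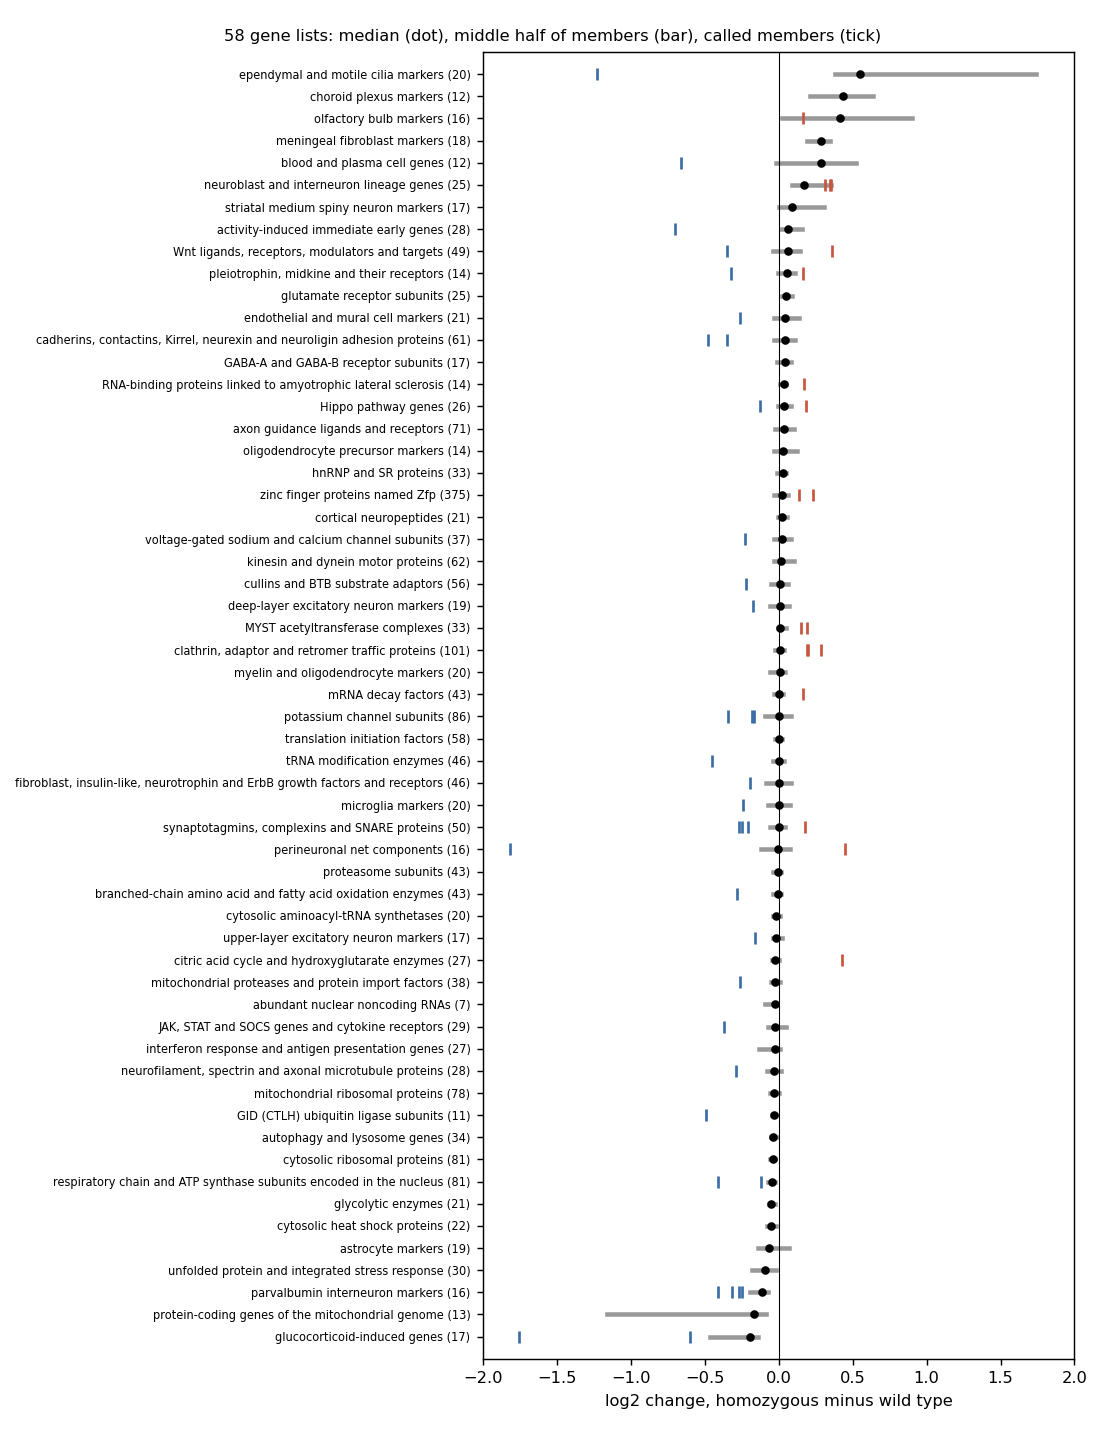
Log2 changes (x axis, homozygous minus wild type) of 58 gene lists (y axis, number of genes tested in parentheses), ordered by median. Dots are medians, grey bars the interquartile range of members and ticks the called members, higher in red and lower in blue. The glucocorticoid list lies lowest, at -0.20, and the ependymal list highest, at 0.55.

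The sign of the estimate followed gene level and gene extent across the genome. By level, 36.7% of genes between 1 and 3 CPM had negative estimates, 49.0% between 10 and 30 CPM, 57.03% between 30 and 100 CPM and 68.4% at 300 CPM or more. Genes under 1 CPM, at 39.6%, broke this order. By extent, the distance from start to end of the gene, 56.99% of genes under 5 kb were negative, 47.4% from 20 to 50 kb and 32.2% of the 911 genes of 200 kb or more. The order by extent held within each band of level from 1 CPM up, apart from genes between 1 and 10 CPM of 50 to 100 kb. These shifts were small, a median log2 change of -0.018 under 5 kb and 0.032 at 200 kb or more. They are given with no test, since genes share libraries.

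The shifts by extent and by level varied between libraries of a group. The median of genes of 200 kb or more minus that of genes under 5 kb, against the wild-type mean, ran from -0.064 to 0.034 in wild type and from -0.058 to 0.14 in homozygotes, with 5 of 8 homozygous libraries above all wild type. The same difference between genes under 10 CPM and those of at least 100 CPM ran from -0.081 to 0.043 in wild type and from -0.0072 to 0.16 in homozygotes, again with 5 of 8 above. Both counts are partly built in, since wild-type libraries are set against their own mean. Its 3 highest values, 0.16, 0.11 and 0.081, were those of homozygous replicates 2, 4 and 1, the libraries of raised ependymal level. Without these 3 libraries 54.0% of genes of at least 100 CPM were negative, against 61.7%, and the median of genes under 10 CPM was 0.019, against 0.045. With 3 surrogate variables or tissue covariates the shift by level became small, with 51.0% and 49.8% of genes of at least 100 CPM negative, while the shift by extent remained, with 33.0% and 32.8% of genes of 200 kb or more negative, and 28.5% without the 3 libraries. Library totals of 75168829 to 96821696 counts in wild type lay within the homozygous range, and the part of depth in these shifts was not tested. RNA quality was not analysed here.

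**Figure D5:**
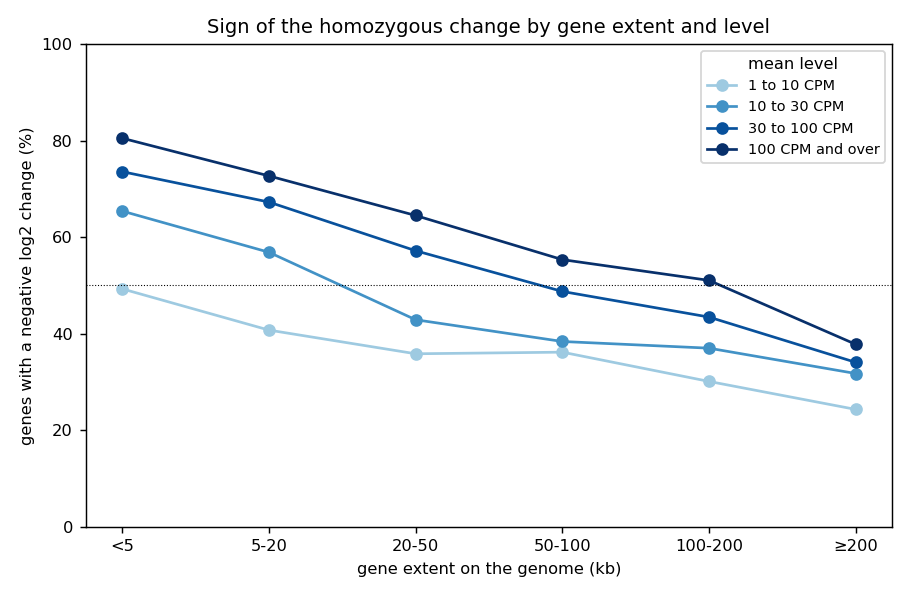
Percentage of tested genes with a negative log2 change (y axis) in 6 classes of gene extent (x axis, kb), with 1 line for each band of mean level. Lines fall from left to right, apart from genes of 50 to 100 kb at 1 to 10 CPM, and are ordered by level. They run from 80.5% among genes under 5 kb at 100 CPM or more to 24.3% among genes of 200 kb or more at 1 to 10 CPM. The dotted line is 50%.

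Neuroblast and interneuron lineage genes, and markers of tissues from outside the cortical sheet, had mostly positive estimates. The lineage genes are not particular to outside tissue, and summed to 902 to 972 CPM in wild type and 953 to 1076 CPM in homozygotes. Of 25 neuroblast and interneuron lineage genes Sox4, Pax6 and the noncoding Dlx6as1 were raised (background 0.503% of genes tested) and 23 had positive estimates (median 0.17). The list's median was highest in homozygous replicates 2, 5 and 8, at 0.37, 0.36 and 0.31 above the wild-type mean, the 3 libraries of raised olfactory bulb markers. None of the 25 was called with surrogate variables or tissue covariates, where the median was 0.096 and 0.055. Pax6, a transcription factor of progenitors that overlaps Pax6os1 and Elp4 on the opposite strand, lay between 7.27 and 9.37 CPM in wild type, median 8.45, and between 9.43 and 11.3 CPM in homozygotes, median 10.6, with no overlap. Of olfactory bulb, meningeal and ependymal markers 12 of 16, 17 of 18 and 19 of 20 had positive estimates, with medians of 0.42, 0.29 and 0.55, and Ptn was the only member called higher. Without homozygous replicates 1, 2 and 4 these medians were 0.47, 0.11 and 0.15. In that fit the calls of Sox4 and Pax6 were not kept (log2 changes 0.32 and 0.29, adjusted p = 0.0580 and 0.0751, edgeR), and that of Dlx6as1, which shares its strand with the overlapping Dlx6as and Dlx6os2 and lies opposite Dlx6, was. In the ependymal list Tekt4, a tektin of cilia at 0.233 to 0.649 CPM in wild type and 0.0956 to 0.302 CPM in homozygotes, was called lower, against the sign of the other 19. Tekt4 was called in 8 of the 14 fits that left out 1 library, and also without homozygous replicates 1, 2 and 4. The ependymal marker Ccdc153 reached 2.44 CPM in homozygotes and 0.380 CPM in wild type.

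Resident glia, vessels and layer markers held few calls, beside a background of 0.672% lowered among all genes tested. In the microglia, endothelial and layer lists, 1 called gene was 4.76% to 5.88% of the members. None of 20 myelin, 14 oligodendrocyte precursor, 19 astrocyte or 27 interferon response genes was called. Of 20 microglia markers Fcrls fell by 0.24, and of 21 endothelial and mural markers Abcc9, a potassium channel subunit of pericytes, fell by 0.26. Cux1 (-0.16), which overlaps A430110C17Rik on the same strand and Gm16599 on the opposite strand, was the 1 called of 17 upper-layer markers and Pcp4 of 19 deep-layer markers. Abcc9, Cux1 and Fcrls were kept in 4, 3 and 11 of the 14 fits without a library, and Abcc9 and Cux1 not without homozygous replicates 1, 2 and 4 (log2 changes -0.28 and -0.15, adjusted p = 0.0532 and 0.106, edgeR). Of 12 blood and plasma cell genes Ighg2c, an antibody constant region whose reads may be shared with near-identical copies, fell by 0.66, with wild type at 5.64 ± 0.507 CPM (SD, n = 6) and homozygotes at 3.56 ± 0.613 CPM (SD, n = 8), and was kept in all 14.

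Called genes lay on every autosome and on the X chromosome, from 0.757% of the genes tested on chromosome 9 to 2.23% on chromosome 1 (22 of 986). On chromosome 4, which holds Tardbp, the share was 1.22%. None of the 13 genes of the mitochondrial genome and none of 226 pseudogenes were called, and 9 of 890 long noncoding genes were, beside 1.17% of all genes tested. Some called genes started within 1 Mb of another, in the same or in opposite directions. How often called genes would do so by position alone was not tested, and the places given are examples. Ing5 and D2hgdh, both raised, lay within chr1:93803965-93852348. Spop, a ubiquitin ligase adaptor, at -0.22, lay close to Fam117a, at 0.40, within chr11:95337018-95493406. Bace2 lay downstream of Igsf5 and Pcp4, which were lowered, within chr16:96361668-97439012.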

How the data were processed

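The authors deposited 1 table of raw counts per gene, whole numbers and not normalised, with 25965 rows. The submitters' processing notes name HISAT2 2.0.5, Trim Galore 0.4.3 and GRCm38, and per the labels' protocols, libraries were stranded and made from polyadenylated RNA. How reads were counted, on which annotation and with which strand setting, is not given in the sources used here. Genes that overlap a called gene of the rule below or Tardbp are therefore named. Rows without a gene identifier (56) were kept.

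The 14 libraries were fitted with edgeR 4.0.16 under R 4.3.3, with TMM scaling, filterByExpr, the robust quasi-likelihood test and no covariate. Called genes had an adjusted p (Benjamini-Hochberg, over all 16512 tested) under 0.05. CPM use TMM-scaled totals; per-library class medians use log2 of CPM. Alternatives used DESeq2 1.42.0, limma 3.58.1 (voom with quality weights), sva 3.50.0, other filters, covariates and samples. Those without 3 homozygous libraries and with the mitochondrial share were chosen after the data were seen. With 200 genes changed in simulated counts of 16512 genes, 34.4% of changes of 0.2, 61.6% of 0.3, 74.4% of 0.5 and 91.6% of 1 on the log2 scale were recovered, and 5.48% of calls were false. Each gene was drawn on its own, without variation shared by the genes of a library, such as neighbouring tissue. These rates may therefore not hold for the real libraries.

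The members and lists were chosen with earlier results of these data known. Named genes were Tardbp and its neighbours, the 12 raised and 12 lowered of smallest p and the 4 and 4 of largest change among called genes of at least 1 CPM, and up to 4 called members of each of 58 lists. Predicted genes and clones (10 raised, 12 lowered) and genes named earlier were passed over in the first parts. Single genes of cholesterol synthesis are not reported here. Of gene identifiers, 96.5% matched GENCODE M21, used for overlaps and gene kinds.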

Additional observations from a re-analysis of the deposited data

Results flagged for a closer look

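Of 290 groups of libraries checked for a single value far from the rest, 7 held one, and chance gives about 1 in 20. Among called genes Mtss1 was at 33.0 CPM in homozygous replicate 5, where the next library was at 31.0 CPM, and Afg3l1 was at 15.9 CPM in homozygous replicate 5, where the next was at 17.4 CPM. Cdh19 was at 9.61 CPM in wild-type replicate 2, where the next was at 10.1 CPM. Hk1, a hexokinase of brain, was at 465 CPM in homozygous replicate 2, below a group median of 536 CPM. Herpud1 was at 69.7 CPM in homozygous replicate 7, above a group median of 58.6 CPM. The neuroblast and interneuron lineage genes summed to 902 CPM in wild-type replicate 6, below the other 5 at 954 CPM or more. The ependymal genes summed to 48.4 CPM in wild-type replicate 3, above the other 5 at up to 45.1 CPM.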

How the results depend on the processing

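The count of 194 called genes (83 raised, 111 lowered) was 10 (3 and 7) with 3 surrogate variables, 13 (7 and 6) with tissue covariates, 45 (18 and 27) with the mitochondrial share and 582 (278 and 304) with DESeq2. Leaving out 1 library gave 58 to 261 genes, 19 to 116 raised and 39 to 145 lowered. Replicate numbers did not pair the samples: correlations of deviations for numbers 1 to 6 ran from -0.099 to 0.15, and 0 of 6 samples correlated best with their own number. With the replicate block 279 genes were called, 135 raised and 144 lowered, and 116 of them were among the 194. The log2 change of Tardbp was 0.17 with surrogate variables (adjusted p = 0.101) and 0.17 with tissue covariates (adjusted p = 0.154). List medians turned sign for 14 of 58 lists with surrogate variables and 13 with tissue covariates, and some of these were among the largest. With tissue covariates the ependymal, olfactory and meningeal medians went from 0.55, 0.42 and 0.29 to -0.088, -0.28 and -0.019, which the fit itself brings about, since it holds those lists' own sums. The choroid and blood medians went from 0.43 and 0.28 to -0.16 and -0.54, and that of the mitochondrial genome from -0.17 to 0.067, or 0.20 with surrogate variables; the cause was not tested. Depth limits the 2624 genes under 1 CPM, where the median standard error was 0.234 against 0.053 over all genes.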

Other observations

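The called genes from Col5a1 to Il1r1 were chosen after their values were seen, and how many other genes of their kinds were tested or called was not counted, so they stand for no group. Col5a1, a fibrillar collagen chain, rose by 0.45 on the log2 scale with wild type at 26.6 ± 1.61 CPM (SD, n = 6) and homozygotes at 36.2 ± 5.49 CPM (SD, n = 8), and the type VI chains Col6a1 and Col6a3 rose by 0.28 and 0.48. Mmp14, a membrane-bound matrix protease, rose by 0.44, Ltbp1, which holds latent growth factor TGF-beta in the matrix, by 0.25, Ecm1 by 0.28 and the growth factor Bmp7 by 0.28. The smallest adjusted p of these 7 was 0.0237 (edgeR), for Ltbp1, whose groups did not overlap. Zic2, a transcription factor, rose by 0.42 without overlap. Meningeal sums were highest in homozygous replicates 1 and 2, and their part in these values was not tested.

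Of those called lower, Mfsd2a, a lipid transporter of brain vessels, fell by 0.43 with wild type at 21.9 ± 1.43 CPM (SD, n = 6) and homozygotes at 16.2 ± 2.67 CPM (SD, n = 8) without overlap. Klf15, a transcription factor of metabolism, fell by 0.28, Pygm, the muscle form of glycogen phosphorylase, by 0.28 and Mertk, a phagocytic receptor, by 0.30. Xdh, xanthine dehydrogenase, fell by 0.49, Timp4 by 0.29, Thrsp by 0.30 and the interleukin receptor Il1r1 by 0.45.

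Of 13 protein-coding transcripts of the mitochondrial genome, 6 differed more than 5-fold between the lowest and highest of the 14 libraries, and the others by at most 1.76-fold. The level of mt-Co2, a cytochrome oxidase subunit, was 8426, 7483 and 5940 CPM in wild-type replicates 6 and 1 and homozygous replicate 7, and 34.6, 43.5 and 48.0 CPM in homozygous replicate 3, wild-type replicate 4 and homozygous replicate 5. The other transcripts with such a range were mt-Co3, mt-Atp6, mt-Atp8, mt-Nd4l and mt-Nd3. High and low libraries occurred in both groups, and the log2 change of mt-Co2 was -1.23 (standard error 1.34, edgeR adjusted p = 0.715). The neighbouring mt-Co1 lay between 23011 and 39815 CPM. The mitochondrial share of counts used as a covariate includes these transcripts.

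The most negative estimate of all tested genes was that of Gm2606, a processed pseudogene, at -7.12 (edgeR adjusted p = 0.114, not called). Its level was 36.1 ± 87.8 CPM (SD, n = 6) in wild type and 0.257 ± 0.0634 CPM (SD, n = 8) in homozygotes, with an SD in wild type above the mean.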
